A study of Mus musculus with 6 samples.

Results

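Gfi1, Gfi1b, Cebpa, Cebpb, Cebpe, Spi1 and Irf8 are 7 mouse genes for transcription factors that steer blood progenitors towards granulocytes, monocytes and other lineages. They were measured on 6 1-colour microarrays in Lhx2 cells, a line of mouse blood progenitors that self-renew in culture because they carry the transcription factor gene Lhx2. Members were the probes whose RefSeq accession maps to one of the 7 symbols. This found 9 probes for 6 of the 7 genes, among 41174 probes on the array. No probe was matched to Cebpe, which is not analysed here. All 9 probes were well above background on all 6 arrays.

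The treated cells were given 10 ng/ml TGF-β1 and harvested 2 h later, and the untreated cells had the same 2 h without the cytokine, with 3 arrays per group. All cells of both groups had been starved of serum overnight in albumin, and the line was grown with stem cell factor and human interleukin 6. RNA came from 3 harvests that the series design calls independent, and the p-values measure the spread between these samples. Samples that share a replicate number, 1 treated and 1 untreated, form a pair. All arrays come from this 1 line, with 1 concentration and 1 time. The sources used here do not say whether it is a single clone.

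GFI1 and GFI1B are zinc-finger repressors that bind DNA and recruit histone demethylase and deacetylase complexes. GFI1 is needed for neutrophil development and holds back monocyte genes, while GFI1B acts mainly in red cell and platelet precursors. C/EBPα opens the granulocyte-monocyte path, C/EBPβ takes over in emergency granulopoiesis and in macrophages, and C/EBPε serves late granulocyte maturation. PU.1, the product of Spi1, is an ETS factor required for myeloid and B cells, and IRF8, which binds DNA with it, favours monocytes and dendritic cells over granulocytes.

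Every value below is the signal of a probe divided by the 75th percentile of its array, or log2 of that ratio. The 75th percentile lay between 794.2 and 1031 on the 6 arrays, the share of probes well above background ran from 82.9% to 90.3%, and 0 spots were saturated. The cells responded to the cytokine: Smad7, the inhibitory SMAD, and Skil, a SMAD co-repressor, had log2 changes of 3.56 (SE 0.15) and 3.46 (SE 0.13). Across all 29166 genes and transcripts tested, 74 changed by limma at an adjusted p under 0.05, which is 0.254% (0.226% higher and 0.0274% lower). With the replicate number as a block, 196 changed, which is 0.672% (0.552% higher and 0.12% lower). The progenitor markers Kit, Ly6a and Cd34 averaged 5.19, 11.1 and 67.3 times the 75th percentile on treated arrays, and 7.17, 9.58 and 51.4 times on untreated arrays. In the same list of 8 genes, Ptprc and Cd48 averaged 12.1 and 10.9 times on treated arrays, and 16.0 and 14.2 times on untreated arrays. Flt3 and Slamf1 were dim, at 0.247 and 0.0261 times on treated arrays and 0.235 and 0.0237 times on untreated arrays. The probe of Lhx2 itself averaged 0.0538 times on treated arrays and 0.0516 times on untreated arrays, and whether it lies within the introduced sequence is not given in the sources used here.

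Of the 6 measured factors, Gfi1 fell, Cebpa fell when the pairs were taken into account, and none rose at the threshold. Of the 6, 1 was called without the block and 2 with it, both lower. Groups did not overlap for 3 of them (Gfi1 and Cebpa lower, Gfi1b higher), which 10.4% of all genes showed (5.05% lower and 5.37% higher). Their median log2 change was 0.20, against -0.01 over all genes tested, because falls and positive values stood side by side. The median size of change, without its sign, was 0.64 against 0.12 over all genes. In bulk RNA, fewer cells of a type and less RNA per cell cannot be told apart.

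**Figure D1:**
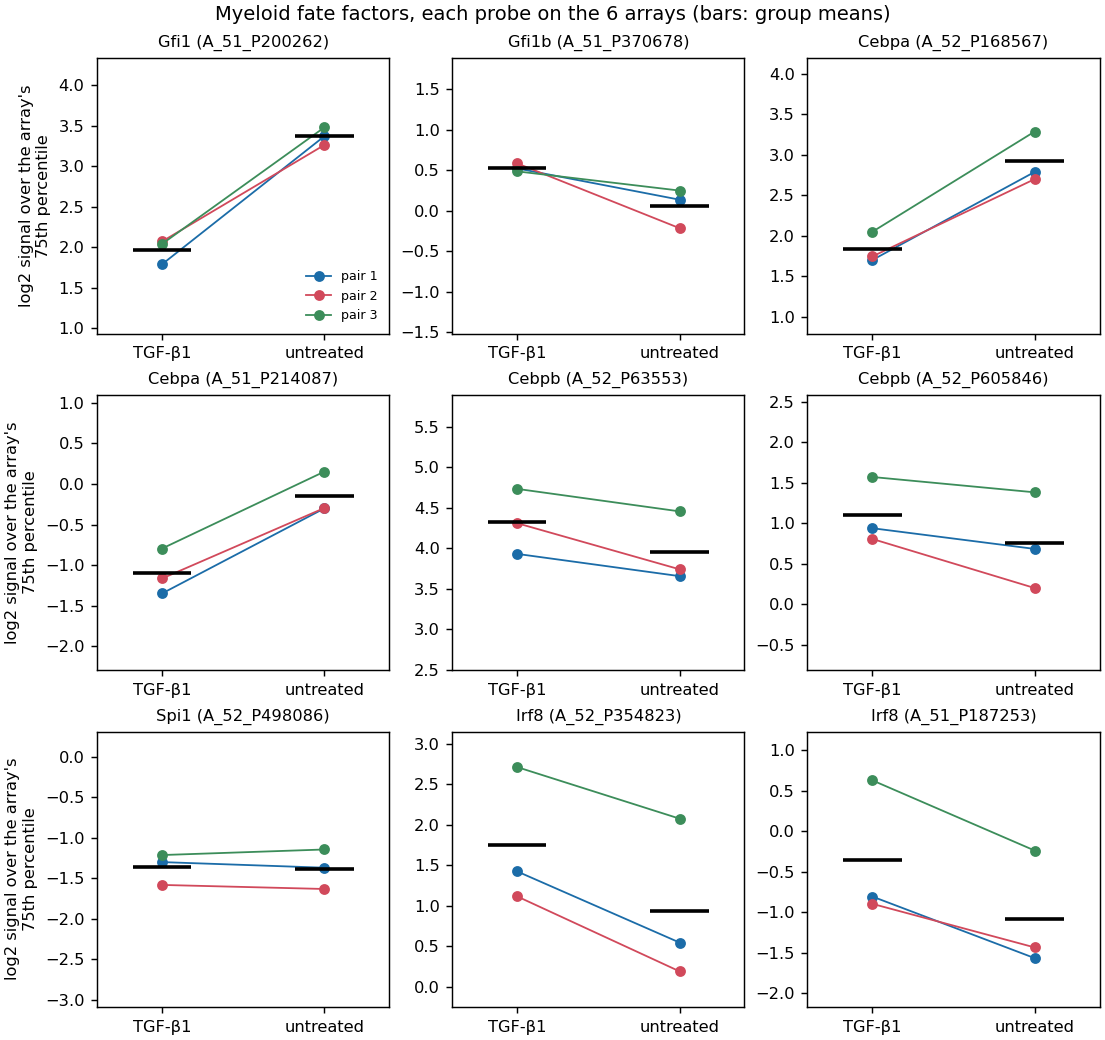
Log2 signal over the array's 75th percentile (vertical axes, each spanning the same range of log2 units) for each of the 9 probes on the 3 TGF-β1 arrays and the 3 untreated arrays. Points of one colour joined by a line are a pair, and black bars are group means. Every line of Gfi1 and Cebpa is lower at the TGF-β1 end, every line of Gfi1b, Cebpb and Irf8 is higher there, and pair 3 lies well above the others for Irf8.

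Gfi1 had 3.46, 4.21 and 4.12 times the 75th percentile on the 3 treated arrays, against 10.4, 9.61 and 11.2 times on the untreated arrays. Every treated array lay below every untreated one, with a gap of 1.19 log2 units between the groups, and replicates of a group lay close together. The means on the log2 scale were 1.97 ± 0.15 in treated cells and 3.37 ± 0.11 in untreated cells (SD, n = 3 each). Gfi1 was therefore 2.65-fold lower after TGF-β1 (log2 change -1.40, SE 0.14; 95% confidence interval 2.08-fold to 3.36-fold lower; adjusted p = 0.0265 by limma with Benjamini-Hochberg adjustment). The 3 pairs gave -1.58, -1.19 and -1.44, and the adjusted p was 0.0363 in limma with pairs as blocks. It ranked 5 by size among the 7 called falls with a gene symbol, and 0.555% of all genes had a change of greater size.

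The size of the Gfi1 change was steady and its call was not. The change lay between -1.64 within slide 1 and -1.21 within slide 2, the 2 slides that carried the arrays, and a fit that took slides as blocks gave -1.42. The call was lost when any single array was left out, with changes of -1.46 to -1.31 and adjusted p from 0.0729 to 0.211 by limma. This was so for treated replicates 1 (0.106), 2 (0.146) and 3 (0.117) and for untreated replicates 1 (0.211), 2 (0.0729) and 3 (0.144). The call was also lost with normexp background correction (-1.27, adjusted p = 0.289) and, narrowly, with scaling to the array median (-1.41, adjusted p = 0.0509).

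Gfi1b, the close relative of Gfi1, had 1.44, 1.50 and 1.40 times the 75th percentile on treated arrays, against 1.10, 0.862 and 1.19 times on untreated arrays. All treated arrays lay above all untreated ones, by 0.24 log2 units at the nearest. The fitted log2 change was 0.47 (SE 0.16, 95% confidence interval 0.09 to 0.86), and it did not pass over all genes (adjusted p = 0.644 by limma, and 0.356 with the replicate block). The pairs gave 0.39, 0.80 and 0.24.

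The signal of Gfi1 relative to that of Gfi1b on the same array was compared between the groups, because both proteins bind the same core motif. The within-array difference of Gfi1 minus Gfi1b was 1.27, 1.49 and 1.56 on treated arrays and 3.23, 3.48 and 3.23 on untreated arrays. It was lower by 1.97, 1.99 and 1.68 log2 units in the 3 pairs, so the ratio of Gfi1 to Gfi1b was lower on the treated array of every pair. Gfi1b itself was not called. The mean shift was -1.88, a 3.67-fold fall of the ratio, with p = 0.1 in an exact two-sided permutation test, the smallest p that 3 against 3 arrays allow (0.1 after adjustment over the 2 such comparisons that could be made of 3 planned). Gfi1 was lower and Gfi1b higher on every treated array than on any untreated one. The difference therefore had to separate the groups, and the test adds nothing to those values.

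Promoter windows were taken from the RefSeq promoter table (GRCm38.p6), which holds windows for 5 of the 7 genes, each reaching from 250 bases before the annotated start to 50 after it. The 4 shown belong to Gfi1, which has 2 annotated starts and fell, to Gfi1b, with positive values, and to Cebpa, which fell with the block. Capitals mark CAGAC, the SMAD box, or AATC, the core bound by GFI1 and GFI1B, on either strand.
Gfi1, upstream start, chr5:107725756-107726055, minus strand: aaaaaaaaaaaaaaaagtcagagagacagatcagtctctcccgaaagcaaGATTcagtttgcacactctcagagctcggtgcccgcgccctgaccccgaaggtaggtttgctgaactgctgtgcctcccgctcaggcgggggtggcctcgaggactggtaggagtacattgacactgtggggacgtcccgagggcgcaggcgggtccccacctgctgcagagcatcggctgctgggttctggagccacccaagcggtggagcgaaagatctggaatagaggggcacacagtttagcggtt
Gfi1, downstream start, chr5:107724294-107724593, minus strand: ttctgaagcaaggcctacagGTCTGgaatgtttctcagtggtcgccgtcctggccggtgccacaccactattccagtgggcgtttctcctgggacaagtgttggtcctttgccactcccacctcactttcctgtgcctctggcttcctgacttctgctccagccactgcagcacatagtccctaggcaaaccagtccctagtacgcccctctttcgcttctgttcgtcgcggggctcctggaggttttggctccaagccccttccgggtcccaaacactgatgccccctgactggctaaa
Gfi1b, chr2:28621933-28622232, minus strand: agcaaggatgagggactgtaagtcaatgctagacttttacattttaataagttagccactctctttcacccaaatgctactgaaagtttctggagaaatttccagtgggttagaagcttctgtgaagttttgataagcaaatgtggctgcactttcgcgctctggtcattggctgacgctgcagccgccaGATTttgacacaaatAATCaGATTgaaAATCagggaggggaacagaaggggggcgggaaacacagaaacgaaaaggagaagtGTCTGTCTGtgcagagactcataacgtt
Cebpa, chr7:35119043-35119342, plus strand: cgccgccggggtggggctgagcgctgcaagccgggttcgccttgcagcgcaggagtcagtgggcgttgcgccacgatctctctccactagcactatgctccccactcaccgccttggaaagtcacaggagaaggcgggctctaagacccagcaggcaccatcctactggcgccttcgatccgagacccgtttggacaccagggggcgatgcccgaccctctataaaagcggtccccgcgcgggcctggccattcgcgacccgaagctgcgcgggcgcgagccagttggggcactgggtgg

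The Gfi1b window held 4 matches to the AATC core, starting 60, 45, 40 and 33 bases before the start, and 10.1% of all 32851 windows of this length held at least 4. It also held 2 CAGAC boxes that overlap by 1 base just after the start, which 16.2% of windows matched or exceeded. The upstream Gfi1 window held 1 AATC core and 0 CAGAC boxes, and the downstream one held 1 CAGAC box and 0 AATC cores. A CAGAC box was found in 49.6% of all windows and an AATC core in 73.1%. The C/EBP motif TTGCNNAA, searched on both strands, was found once in the upstream Gfi1 window, 143 bases before the start, and in 10.8% of all windows. The Cebpa window held neither of those motifs nor GGAAGT, a PU.1 motif found in 23.8% of windows, and 67.3% of its bases were G or C. Of the windows not shown, that of Cebpb, which was not called, also held 0 matches to these motifs. The upstream Irf8 window held 3 AATC cores, and 22.6% of windows held at least 3. The downstream Irf8 window held 1 AATC core and 1 CAGAC box. A match is a run of letters and was not tested for binding.

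Cebpa, the gene for C/EBPα, had 3.25, 3.35 and 4.14 times the 75th percentile on treated arrays, against 6.91, 6.49 and 9.76 times on untreated arrays. Every treated array was below every untreated one, with a gap of 0.65 log2 units, and pair 3 was the highest in both groups. The log2 means were 1.83 ± 0.19 in treated cells and 2.92 ± 0.32 in untreated cells (SD, n = 3 each), 2.13-fold lower after TGF-β1 in the fit. The log2 change was -1.09 (SE 0.20, 95% confidence interval -1.58 to -0.61). It did not pass without the block (adjusted p = 0.147 by limma) and passed with the replicate number as a block (SE 0.11, adjusted p = 0.0452).

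A second probe for Cebpa gave a like value. It had 0.392, 0.446 and 0.576 times the 75th percentile on treated arrays, against 0.812, 0.814 and 1.11 times on untreated arrays, again with no overlap. Its log2 change was -0.96 (SE 0.21, adjusted p = 0.237 by limma over all probes, and 0.0515 with the block). Within slide 1 the change of Cebpa was -1.34 and within slide 2 it was -0.80. With one pair left out in turn and the block kept it lay at -1.10, -1.16 and -1.02, and it was not called in those fits of 4 arrays.

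Cebpb, the gene for C/EBPβ, did not share the fall. Its brighter probe had 15.2, 19.8 and 26.6 times the 75th percentile on treated arrays, against 12.6, 13.4 and 21.9 times on untreated arrays. The groups overlapped, since the untreated array of pair 3 lay above the treated arrays of pairs 1 and 2, while each treated array lay above its own untreated partner. The log2 change was 0.37 (SE 0.29, 95% confidence interval -0.32 to 1.07, adjusted p = 1 by limma), and with the block the SE was 0.12 and the adjusted p was 0.365. The dimmer probe gave 0.35 (SE 0.34). Within slide 1, where the untreated array of pair 3 was set beside arrays of pair 1, the value was -0.13, and within slide 2 it was 0.78.

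The difference Cebpa minus Cebpb on the same array was -2.23, -2.56 and -2.68 on treated arrays and -0.87, -1.04 and -1.17 on untreated arrays. The shift was -1.36, -1.52 and -1.51 in the 3 pairs, with a mean of -1.47, a 2.76-fold fall of the ratio. The exact two-sided permutation test gave p = 0.1, again the smallest this design allows. The spread between pairs (SD 0.09) was small beside the shift, and the ratio of Cebpa to Cebpb was lower in treated cells in each harvest. Cebpb itself was not called.

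Spi1, the gene for PU.1, showed no change that could be detected. It had 0.407, 0.334 and 0.432 times the 75th percentile on treated arrays, against 0.387, 0.323 and 0.453 times on untreated arrays. The groups overlapped almost fully, and the pairs gave 0.07, 0.05 and -0.07. The log2 change was 0.02 (SE 0.18, adjusted p = 1 by limma), with a 95% confidence interval of -0.42 to 0.45, or -0.26 to 0.29 with the block. The fall measured for Gfi1 and for Cebpa lay outside both intervals.

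Irf8 was higher in each treated sample than in its untreated partner, on a level that depended strongly on the harvest. Its brighter probe had 2.68, 2.16 and 6.55 times the 75th percentile on treated arrays, against 1.46, 1.14 and 4.21 times on untreated arrays. Pair 3 stood above the others in both groups, so the groups overlapped. The pairs gave 0.88, 0.92 and 0.64 and the log2 change was 0.81, or 1.76-fold, with an SE of 0.60 without the block (adjusted p = 1 by limma) and 0.12 with it (adjusted p = 0.0856). It was not called in either fit. A second probe gave pair values of 0.76, 0.54 and 0.87 and a change of 0.72 (SE 0.52, and 0.12 with the block). For Irf8 the SE without the block was 5.16 times that with it, a ratio of at least 5 that 1.45% of all genes had. Within slide 1 the Irf8 value was 0.11 and within slide 2 it was 1.72, as pair 3 had its treated array on slide 2 and its untreated array on slide 1.

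**Figure D2:**
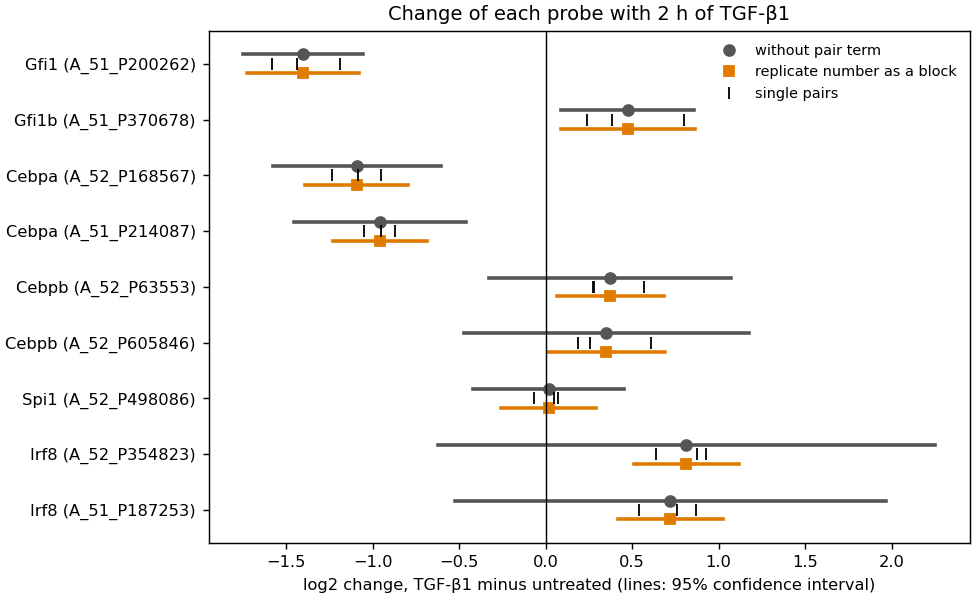
Log2 change, TGF-β1 minus untreated (horizontal axis), for each of the 9 probes, with the 95% confidence interval from limma without a pair term (grey circles) and with the replicate number as a block (orange squares), and the 3 single pairs as ticks. The intervals of Gfi1 and Cebpa lie wholly below 0 in both fits, those of Spi1 span 0 in both, those of Gfi1b lie above 0 in both, and those of Irf8 and Cebpb span 0 without the block and lie above 0 with it.

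The same direction in all 3 pairs was seen for 5 of the 6 measured factors, with Spi1 the exception, and in 34.2% of all genes. Gfi1 and Cebpa were lower in all pairs, as 20% of all genes were, and Gfi1b, Cebpb and Irf8 were higher in all pairs, as 14.1% were.

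Of the 6 factors, Irf8 was the one that stood far apart in 1 harvest, in treated and untreated cells alike. Irf8 in pair 3 lay 1.44 log2 units above the mean of pairs 1 and 2 on treated arrays and 1.71 units above it on untreated arrays. A difference of over 1 unit upwards in both groups was found in 0.339% of all genes, and among the factors in Irf8 alone. Outside the factors, their relative Cebpd also showed it, with 1.05 on treated and 1.17 on untreated arrays. None of the factors lay over 1 unit below in both groups, as 2.01% of all genes did. Cebpb lay 0.61 above in treated and 0.76 above in untreated cells, and Cebpa 0.33 and 0.54 above. Gfi1, with 0.11 and 0.16, and Gfi1b, with -0.07 and 0.29, varied less between harvests.

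Some myeloid genes were also higher in pair 3. Of 15 measured monocyte and macrophage genes, 5 were over 1 log2 unit higher in pair 3 in both groups, namely Csf1r, Csf2ra, Cx3cr1, Ccr2 and Cybb. Csf1r encodes the receptor for macrophage colony-stimulating factor, and Csf2ra the alpha chain of that for granulocyte-macrophage colony-stimulating factor. Csf2rb, for the beta chain, is in the same list and lay only 0.42 above on treated and 0.44 above on untreated arrays. Csf1r lay 1.18 above on treated arrays and 1.28 above on untreated arrays, and Cybb, the phagocyte oxidase subunit, 2.00 and 1.97 above. Of 16 granulocyte genes, 3 were over 1 log2 unit higher in pair 3 in both groups. They were the calcium-binding alarmins S100a8 (2.14 on treated and 2.57 on untreated arrays) and S100a9 (1.42 and 1.80) and the collagenase Mmp8 (1.42 and 2.16). These 8 genes were picked out after their values were seen. The median over each list was 0.71 on treated and 0.58 on untreated arrays for monocyte genes, and 0.71 and 0.73 for granulocyte genes, against 0.12 and -0.06 over all genes tested. Of the 15 monocyte genes 13 lay above the other pairs in both groups by any margin, and of the 16 granulocyte genes 14 did. Fcgr1 and Mmp9 lay below in both groups. The part of such cells in the harvest difference of Irf8 was not tested.

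**Figure D3:**
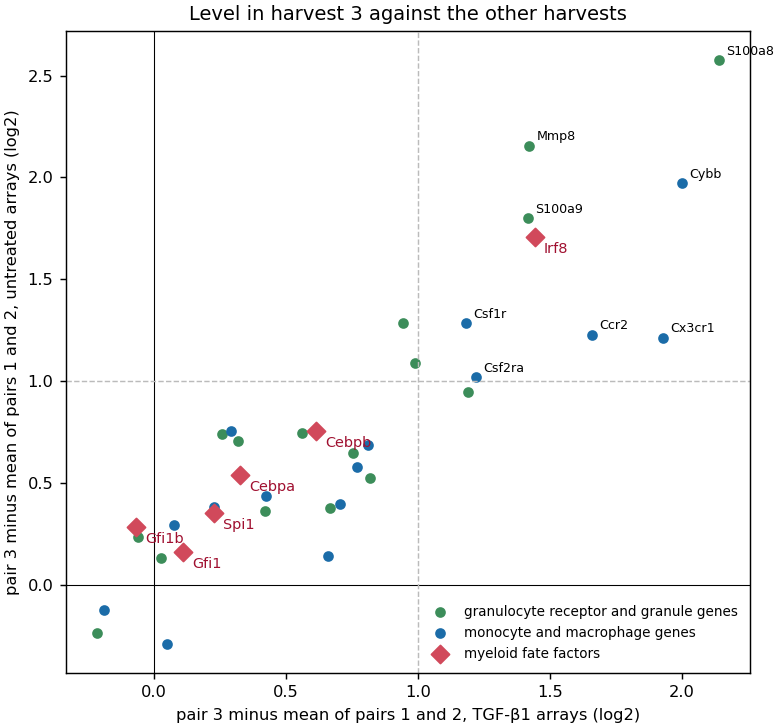
Pair 3 minus the mean of pairs 1 and 2 (log2) on TGF-β1 arrays (horizontal axis) and on untreated arrays (vertical axis) for the myeloid fate factors (red diamonds), 16 granulocyte genes (green) and 15 monocyte and macrophage genes (blue), with dashed lines at 1. Irf8 lies with S100a9, Mmp8 and Cybb in the upper right, while Gfi1, Gfi1b and Spi1 lie near the origin.

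Limma called 0 of 16 granulocyte genes with or without the block, with 0 at an unadjusted p under 0.05. It called 0 of 15 monocyte genes in either fit, with 1 (Ncf1) at an unadjusted p under 0.05. Unadjusted counts are from the fit without the block, in which 5.77% of all genes had such a p. Of all genes, 0.254% were called without the block and 0.672% with it, so 0 calls in such short lists is near the general share. Mpo, myeloperoxidase, averaged 361.3 times the 75th percentile in treated cells and 366.3 times in untreated cells (log2 change -0.02, SE 0.12). Ctsg, cathepsin G, had -0.13 (SE 0.13), and the lysozyme gene Lyz2 and the protease gene Ctss had -0.03 (SE 0.14) and 0.08 (SE 0.14). The summed level of the granulocyte list ranged from 582.7 to 659.4 in treated and from 575.4 to 739.4 in untreated cells. That of the monocyte list ranged from 289.2 to 341.0 in treated and from 291.4 to 333.3 in untreated cells. Mpo and Ctsg (176.7 times in treated cells) made up most of the granulocyte sum. Lyz2 (133.6 times) and Ctss (121.2 times) made up most of the monocyte sum. The sums therefore say little about the other genes of each list.

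RNA of co-repressors and binding partners of GFI1 was measured for 8 of 9 listed genes. Limma called 0 of them in either fit, with 0 at an unadjusted p under 0.05. Of all genes, 0.254% were called without the block and 0.672% with it, and 5.77% had such an unadjusted p. Their changes lay between -0.22 and 0.20, with a median of -0.06. Ehmt2, a histone H3 lysine 9 methyltransferase, had -0.16 (SE 0.20), and Rcor1, the scaffold that joins the demethylase LSD1 to its targets, had -0.04 (SE 0.13).

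Of all genes, 0.226% were called higher without the block, and 0.552% higher and 0.12% lower with it. A short list with 0 called higher is therefore near the general share. Of 13 genes reported as repressed by GFI1, 0 were called higher in either fit, and 1 was lower with the block. That gene was Meis1, a homeobox cofactor of self-renewal (log2 change -1.41, SE 0.22; adjusted p = 0.0871 by limma, and 0.0417 with the block). The call for Meis1 was lost when any of the 3 pairs was left out with the block kept. The median over the list was -0.03, with 6 positive and 7 negative values, and 3 of the 13 (Meis1, Id2 and E2f5) had an unadjusted p under 0.05, beside 5.77% of all genes. Id2, which keeps E proteins off DNA, was named after its values were seen and had 0.91 (SE 0.14, adjusted p = 0.0788 by limma, and 0.0760 with the block). With the log2 values that the authors deposited in place of the scanner signal, Id2 was called higher (0.92, adjusted p = 0.0399 by limma).

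C/EBP relatives and regulators (6 genes, median -0.09) had 0 members called in either fit and 0 at an unadjusted p under 0.05. Of all genes, 0.254% were called without the block and 0.672% with it. Cebpd, which encodes C/EBPδ, had -0.45 (SE 0.43, and 0.11 with the block), with -0.50, -0.32 and -0.53 in the 3 pairs. Cop1, a ubiquitin ligase that with Tribbles proteins directs C/EBPα to degradation, had -0.13 (SE 0.12, and 0.10 with the block). PU.1 and IRF relatives and partners (11 genes, median 0.01) had 0 called in either fit and 4 (Gata2, Runx1, Myb and Zeb2) at an unadjusted p under 0.05, beside 5.77% of all genes. The progenitor factor Myb had -0.62 (SE 0.15, adjusted p = 0.282 by limma), and Cbfb, the partner of RUNX proteins, had 0.19 (SE 0.14).

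No markers of other blood cells or of progenitors were called either. Limma called 0 of 3 erythroid, 5 megakaryocyte, 5 mast cell and basophil, 7 lymphoid and 8 progenitor markers in either fit, and at an unadjusted p under 0.05 it had 1, the progenitor marker Cd34. Of all genes, 0.254% were called without the block and 0.672% with it, and 5.77% had such an unadjusted p. The lack of calls is near these shares and does not show that the markers held steady. Pf4, platelet factor 4, had -0.11 (SE 0.67, and 0.13 with the block) and Itga2b, the platelet integrin, -0.06 (SE 0.42, and 0.11 with the block). The mast cell protease genes Cpa3 and Mcpt8 had -0.37 (SE 0.24, and 0.10 with the block) and -0.13 (SE 0.28, and 0.10 with the block). Cd34 had 0.39 (SE 0.14) and Ptprc, the CD45 gene, -0.39 (SE 0.19). The T-cell genes Lck and Cd3e had 0.15 (SE 0.16) and -0.45 (SE 0.29). The erythroid genes Epor and Hba-a1 had 0.13 (SE 0.20) and 0.03 (SE 0.16). Of 6 listed erythroid markers, 3 were measured. Their summed level ran from 0.323 to 0.390 times the 75th percentile in treated cells and from 0.303 to 0.403 in untreated cells. Of the 7 lymphoid probes, 5 were well above background on all 6 arrays. Ebf1 and Rag1 were not, and averaged 0.0228 and 0.0202 times in treated and 0.0196 and 0.0226 times in untreated cells. For such dim genes, the lack of a call cannot tell an absent response from one too dim to measure.

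**Figure D4:**
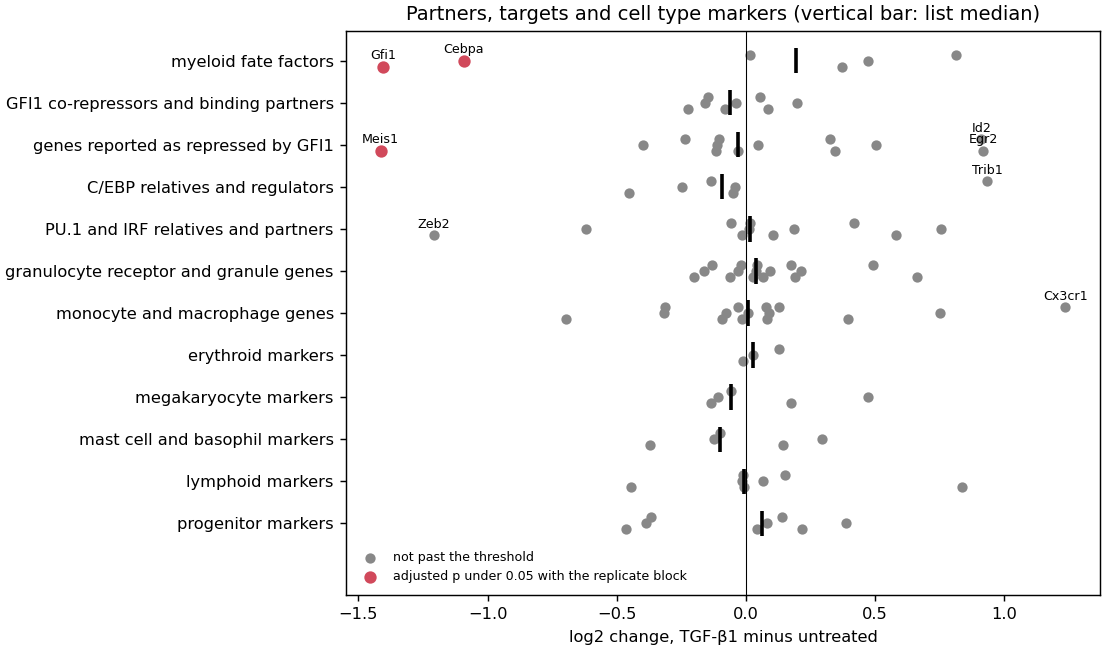
Log2 change, TGF-β1 minus untreated (horizontal axis), of every measured gene in each list, with the list's median as a vertical bar and genes past an adjusted p of 0.05 with the replicate block in red. Gfi1, Cebpa and Meis1 are the red points, and the medians of the partner, target and marker lists lie between -0.10 and 0.06.

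The genes whose 6 array values lay closest to those of Gfi1 were searched among 15640 other genes with a symbol, by the root mean square difference after subtracting each gene's own mean. The 5 closest were Cd28, a co-stimulatory receptor, at 0.0692 log2 units, Thbs1, thrombospondin 1, at 0.0723, Il1r1, the interleukin 1 receptor, at 0.124, Cytip, a cytohesin-binding protein, at 0.153, and St8sia4, a polysialyltransferase, at 0.181. Their log2 changes were -1.36, -1.30, -1.18, -1.13 and -1.74. Closest to Cebpa were Cytip at 0.110, Cyria at 0.156, Cited2, a CBP/p300-binding regulator, at 0.159, Napepld at 0.160 and the phosphatase gene Ptpn22 at 0.161. Cytip was thus among the 5 closest to both, and Gfi1 and Cebpa themselves lay 0.224 apart, rank 11 of the genes closest to Gfi1. These likenesses describe 6 arrays of 2 groups and rest mostly on the difference between the groups.

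**Figure D5:**
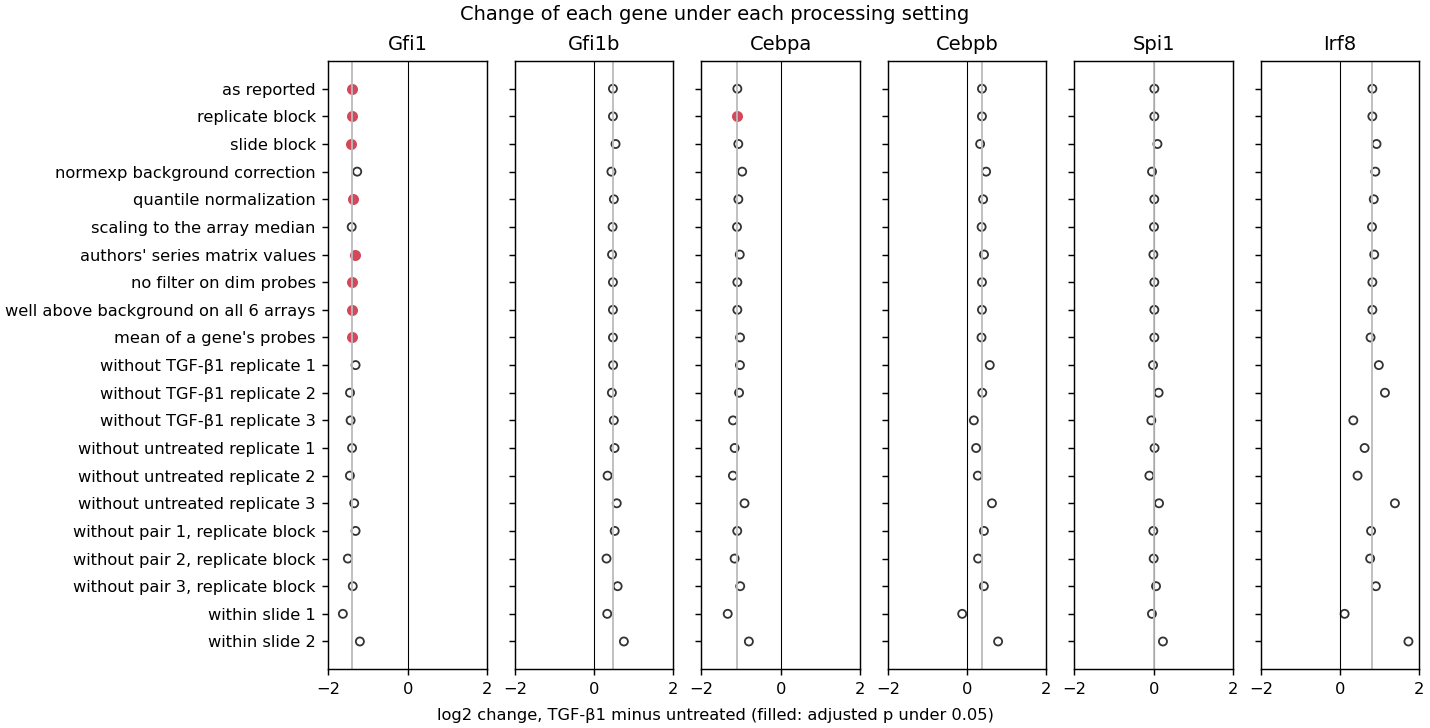
Log2 change, TGF-β1 minus untreated (horizontal axes), of each of the 6 measured genes under each processing setting (rows), filled where the adjusted p was under 0.05, with a grey line at the reported value. Gfi1 stays between -1.64 and -1.21 and Cebpa between -1.34 and -0.80, while Irf8 ranges from 0.11 to 1.72.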

How the data were processed

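Total RNA of 6 samples was labelled with Cy3 and hybridised to 1-colour Agilent arrays of design 014868, annotated on build mm8. The authors' deposited scanner files hold the spot intensity from Agilent Feature Extraction 10.1.1.1, which per the file headers is background-subtracted on each array; it carries no scaling across arrays. The authors' deposited series matrix holds log2 values, which correlated with log2 of each array's median spot signal at r = 0.99951 to 0.99989 (column medians 7.383 to 7.417). The submitters' processing notes name limma, without its settings.

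Values are log2 of the processed intensity minus the array's 75th percentile over 43379 non-control spots, leaving out outlier spots (43 to 101 an array). Probes well above background on at least 3 arrays were kept (36390 of 41174). Probes were named through unversioned RefSeq accessions with the table of assembly GRCm38.p6, which named 23374. A gene was represented by its brightest passing probe. The test was limma 3.58.1 (R 4.3.3), TGF-β1 minus untreated, adjusted by Benjamini-Hochberg over the 29166 features tested, at 0.05. Second probes were fitted over all probes. The fit was tested on simulated data. The number of arrays limits precision.

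Deviations from the group means correlated at 0.636, 0.786 and 0.557 within pairs 1, 2 and 3, and at -0.736 to 0.0713 between samples of different number, so the number was taken as pairing the samples. The labels give the numbers. Slide 1 held treated replicate 1 and untreated replicates 1 and 3, and slide 2 held the others.

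The factors and gene lists were chosen with earlier results of these data known. Named are all factors, the list genes called with or without the block (up to 5 a list) or otherwise the 2 brightest, Smad7 and Skil, and the 5 genes closest to each factor with a change of at least 1. Other genes were named after their values were seen, except Kit, Ly6a, Cd34 and Lhx2 in the opening. Those named so include E2f5, Gata2, Runx1, Ncf1, Fcgr1, Mmp9, Cd48, Flt3 and Slamf1. Alternatives were the replicate and slide blocks, normexp, quantile and median scaling, the authors' matrix values, filters, probe averaging and leaving out arrays. The files hold no mean spot signal, so normexp with an offset of 50 used the median signal.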

Additional observations from a re-analysis of the deposited data

How the results depend on the processing

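Gfi1 and Cebpa were lower, and Gfi1b and Irf8 higher, under all 20 alternatives run for each. Some of these could not move the values. The replicate block and the filters left each change as it was, as did probe averaging for Gfi1 and Gfi1b, which have a single probe. Taking the replicate number as a block gave 196 changed genes against 74, called 2 factors against 1, added Cebpa (-1.09, adjusted p = 0.0452 by limma) and 1 list gene (Meis1), and changed no other call among the factors. Normexp correction gave 5 changed genes, 0 factors, Gfi1 at -1.27 and Spi1 at -0.041; it shifted the median of all genes to -0.16, relative to which Gfi1 was at -1.11 and Spi1 at 0.12. Scaling to the array median gave 47 genes, 0 factors and Gfi1 at -1.41. The authors' matrix values gave 172 genes, 1 list gene (Id2, higher by 0.92) and Spi1 at -0.0071. Without single arrays the counts ran from 7 to 24 genes and 0 factors, the median of the factors from 0.055 to 0.35, Gfi1 from -1.46 to -1.31 and Spi1 from -0.11 to 0.14; these fits have fewer samples. Leaving out pairs 1, 2 and 3 in turn with the block kept, chosen after seeing the data, gave 42, 26 and 67 genes, 0 factors, Gfi1 at -1.32, -1.51 and -1.39, and, without pair 1, Spi1 at -0.0093. Within slide 1 the changes were -1.64 for Gfi1, -0.13 for Cebpb and -0.043 for Spi1, and within slide 2 -1.21 for Gfi1, 0.75 for Gfi1b and -0.80 for Cebpa. The filters gave 52 and 104 genes. The sign of Spi1 was not determined, and where no cause is named it was not tested. The shifts of Gfi1 minus Gfi1b (-1.94 to -1.71) and of Cebpa minus Cebpb (-1.60 to -1.37) kept their sign in all 13 alternatives. Scaling to the array median cancels within an array and the filters kept the same probes, so these could not alter either shift. Probe averaging could not alter Gfi1 minus Gfi1b.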

Other observations

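Among the partner and marker lists, 3 genes with sizeable values that did not reach an adjusted p under 0.05 in either fit were picked after their values were seen. Zeb2 is a zinc-finger repressor that acts in the development of progenitors and monocytes. It averaged 1.56 times the 75th percentile in treated cells and 3.51 times in untreated cells, and was lower in 3 of 3 pairs. The log2 change of Zeb2 was -1.21 (SE 0.30, adjusted p = 0.32 by limma, and 0.0618 with the replicate block). Trib1, a Tribbles protein that directs C/EBPα to degradation, averaged 0.448 times in treated cells and 0.232 times in untreated cells (0.93, SE 0.40; adjusted p = 0.902, and 0.057 with the block), with 1.01, 0.97 and 0.82. Cx3cr1, the fractalkine receptor of monocytes, averaged 0.727 times in treated cells and 0.271 times in untreated cells (1.24, SE 0.61; adjusted p = 1, and 0.115 with the block), with 1.25, 0.75 and 1.71.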
